A study of Mus musculus with 16 samples.

Results

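The 38 genes described here carry glucose from the blood to pyruvate, lactate and glycogen. They are glucose transporters, glycolytic enzymes, lactate dehydrogenases and transporters, the first regulators of pyruvate oxidation, and enzymes of glycogen synthesis and breakdown. They were taken by name from a deposited table of 16118 genes, in which 39 entries bear these names because Aldoa is listed under a pair of gene identifiers. Of the 39 entries, 38 passed the filter on low values and were tested among 13950 genes, with at least 1 tested entry for every name. The second Aldoa entry (ENSMUSG00000114515) averaged under 1 CPM and was not tested. One name differs from the annotation: the gene listed as Pgm2 (ENSMUSG00000025791) is the annotation's Pgm1, a phosphoglucomutase.

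RNA came from 8 mouse embryos at E15.5 (embryonic day), each giving an atrial and a ventricular library, which made 4 groups of 4 libraries. All 8 embryos were homozygous for floxed alleles of Meis1 and Meis2, a pair of homeobox transcription factors. The 4 double knockout (dKO) embryos also carried 1 copy of an αMHC-Cre transgene, whose promoter is active in cardiomyocytes, and the 4 controls carried none. The presence of Cre and the deletion therefore cannot be told apart in these comparisons, and cells other than cardiomyocytes are not the target of the Cre. The series design allows a constitutive or an inducible deletion, and the labels do not settle which applied. The protocol names 4 litters with 1 embryo of each genotype, but title numbers do not bear this out, so embryos were not paired across genotypes. Whole chambers were lysed, so fewer cells of a type and less RNA per cell cannot be told apart.

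Glycolysis splits glucose into pyruvate, which is either reduced to lactate and exported or passed to the pyruvate dehydrogenase complex of mitochondria. The fetal heart works at low oxygen and relies on glycolysis and lactate more than the adult heart, which mainly oxidises fatty acids. Glycogen, a branched glucose store that is abundant in fetal myocardium, is begun on the protein primer glycogenin, extended by glycogen synthase and broken down by glycogen phosphorylase.

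Libraries held 7.88 to 23.0 megareads (M) each, and the shallowest member, Pfkfb2, had at least 63 reads in each. All dKO ventricles were shallower (7.88 to 14.3 M) than all control ventricles (15.6 to 23.0 M), while atrial groups overlapped (14.3 to 19.3 M against 14.8 to 19.4 M). The part of depth in the ventricular results was not tested. Meis1 was lower in dKO atria (26.1 ± 3.19 against 40.4 ± 2.61 CPM, reads scaled to library size; SD, n = 4) and not in dKO ventricles (40.9 ± 2.41 against 41.5 ± 3.96 CPM). Meis2 was lower in dKO ventricles (23.4 ± 2.85 against 39.2 ± 3.46 CPM) and not in dKO atria (26.5 ± 1.90 against 25.4 ± 2.05 CPM). Reads anywhere in either gene enter these values, so a transcript that lacks its floxed exon is still measured where the rest of it remains.

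In dKO atria 8 of the 38 members differed from control, 7 lower and 1 higher. The lower ones were the glycogen primer Gyg, the glucose transporter Slc2a1, the lactate transporter Slc16a1, the hexokinase Hk1, the aldolase Aldoc, the glycogen phosphorylase Pygl and the enolase Eno3, and the higher one was the glucose transporter Slc2a3. The count is 21.1% of the members, beside 7.47% of all genes tested (limma, adjusted p under 0.05 over all 13950 genes). Lower members were 18.4% of the 38 and the higher one 2.63%, beside 3.43% and 4.04% of all genes. Among genes averaging at least 5 CPM, as every tested member did, 8.94% were called. The 30 members not called had log2 differences from -0.22 to 0.31, and their 95% intervals reached from -0.43 to 0.53. The median over the 38 members was -0.07, beside -0.0046 over all genes. The groups did not overlap for 10 members, 26.3% beside 14.1% of all genes: the 8 called ones, Pfkfb2 and Gbe1.

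In dKO ventricles 4 of the 38 members differed from control, all lower: Slc2a1, Slc16a1, Gyg and the glycogen synthase Gys1. This is 10.5% of the members, beside 2.0% of all genes (1.01% lower and 0.989% higher) and 2.38% of those averaging at least 5 CPM. The 34 members not called had log2 differences from -0.24 to 0.07, with 95% intervals from -0.47 to 0.27. At its adjusted p edgeR called 4 members, beside 259 of 13950 genes. DESeq2 called 6, among them Hk1 and Pgam1, beside 469 of 13937 genes. At an unadjusted p under 0.05 limma gave 13 members, all lower. The share of all genes at an unadjusted p was not counted, here or below. The median over the members was -0.09, beside -0.02 over all genes. With edgeR and DESeq2 the median over all genes was -0.0002 and -0.0003. Of the 38 limma values 32 were below 0, and the share of all genes below 0 was not counted. The groups did not overlap for 10 members, 26.3% beside 8.11% of all genes, and in each of these the dKO libraries were the lower ones. Besides the 4 called they were Hk1, Aldoa, Tpi1, Pgam1, Pgam2 and Pygl, with log2 differences from -0.24 to -0.10 and limma adjusted p from 0.0647 to 0.47.

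**Figure D1:**
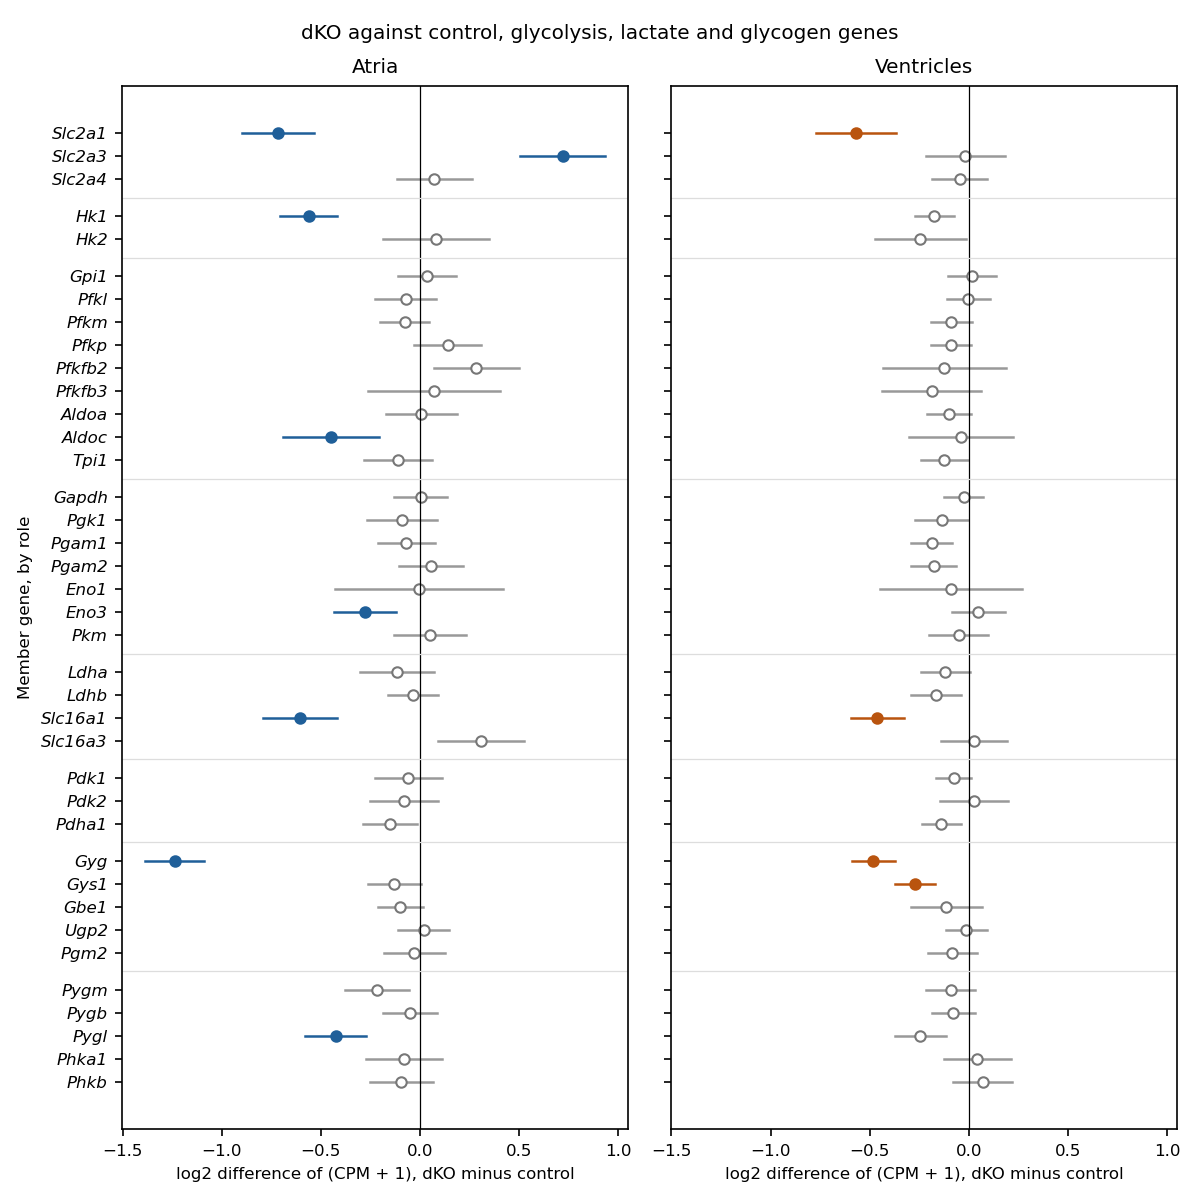
Log2 difference of (CPM + 1) between dKO and control libraries for each of the 38 tested members, in atria (left) and ventricles (right). Genes are on the vertical axis in order of role, points are limma estimates, bars are 95% intervals, and filled points are members called at adjusted p under 0.05: 8 in atria, of which Slc2a3 alone lies above 0, and 4 in ventricles, all below 0.

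The dKO effect differed between chambers for 3 members, 7.89% beside 2.64% of all genes (1.31% positive and 1.33% negative; limma, all 16 libraries with embryo as a block). As the effect in ventricles minus that in atria, the log2 difference was 0.76 for Gyg (adjusted p = 1.49e-05), 0.39 for Hk1 (adjusted p = 0.00562) and -0.74 for Slc2a3 (adjusted p = 0.00254). Gyg fell in both chambers and by more in atria. For Slc2a1 the difference between chambers was 0.15 (95% interval -0.12 to 0.41) and for Slc16a1 0.14 (-0.08 to 0.37), and neither was called. Eno3 (0.33, limma adjusted p = 0.069) was called with DESeq2 (adjusted p = 0.0208) and with re-centred medians (0.0411).

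Glucose enters cells through facilitative transporters of the GLUT family. Slc2a1 (ENSMUSG00000028645, chromosome 4, 119108711 to 119137983, GRCm38) encodes GLUT1, the main glucose transporter of the fetal heart. Control atria measured 284, 259.5, 222 and 257 CPM and dKO atria 143, 151, 176 and 151 CPM in libraries 1 to 4. All dKO atria lay below all control atria, at a mean of 60.7% of control (log2 -0.71 ± 0.083 SE, limma adjusted p = 0.000352). Control ventricles measured 197, 161, 200.4 and 167 CPM and dKO ventricles 108, 114, 145 and 122 CPM, again without overlap and at 67.4% of control (log2 -0.57 ± 0.093 SE, limma adjusted p = 0.00642). Within the 4 embryos that share 1 title number the ventricular call was lost (log2 -0.46, adjusted p = 0.181; 1.99e-07 to 0.0255 under the other alternatives). Red blood cells also carry GLUT1, and their part in the Slc2a1 values was not tested. The summed level of 7 erythroid markers overlapped between genotypes in atria (2521 to 5629 CPM in control, 3001 to 5303 in dKO) and in ventricles (2283 to 3469.8 and 3063 to 4825). Limma, edgeR and DESeq2 called 0 of the 7 in either chamber. At an unadjusted limma p under 0.05 there were 0 in atria and 3 in ventricles, all 3 higher in dKO.

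Slc2a3 (ENSMUSG00000003153, chromosome 6, 122727809 to 122801640) encodes GLUT3, a high-affinity transporter best known from neurons and embryonic tissue. Its level was 19.7, 17.5, 20.2 and 14.5 CPM in control atria and 28.7, 29.9, 30.8 and 30.7 CPM in dKO atria. The dKO atria lay close together and all above the controls, a rise to 167% of control (log2 0.72 ± 0.10 SE, limma adjusted p = 0.00104). In ventricles it was 33.3, 31.2, 33.8 and 28.8 CPM in controls and 35.8, 28.9, 34.4 and 27.1 CPM in dKO, and these groups overlapped (log2 -0.02, 95% interval -0.22 to 0.18). Slc2a4, which encodes the insulin-responsive transporter GLUT4, ranged from 34.0 to 46.5 CPM in control and 41.2 to 44.7 CPM in dKO atria, and the groups overlapped in both chambers (log2 0.07 in atria and -0.05 in ventricles).

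Hexokinase phosphorylates glucose and so traps it in the cell. Hk1 (ENSMUSG00000037012, chromosome 10, 62268855 to 62379908) measured 279, 259, 262 and 275 CPM in control atria and 161, 191, 186 and 192 CPM in dKO atria. The groups were well apart, with dKO at 67.8% of control (log2 -0.56 ± 0.065 SE, limma adjusted p = 0.000338). In ventricles Hk1 stood at 413, 457, 448 and 448 CPM in controls and 372, 399, 393 and 401 CPM in dKO. These groups did not overlap either, but the difference was smaller and was not called by limma (log2 -0.17, limma adjusted p = 0.0933). Hk2, the isozyme of insulin-sensitive muscle, measured 67.5, 54.2, 56.5 and 50.3 CPM in control and 49.3, 67.2, 72.0 and 54.7 CPM in dKO atria, and 131, 101, 141 and 107 CPM in control and 90.3, 98.2, 118 and 97.5 CPM in dKO ventricles. Genotypes overlapped in both chambers (log2 0.08 in atria and -0.24 in ventricles).

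**Figure D2:**
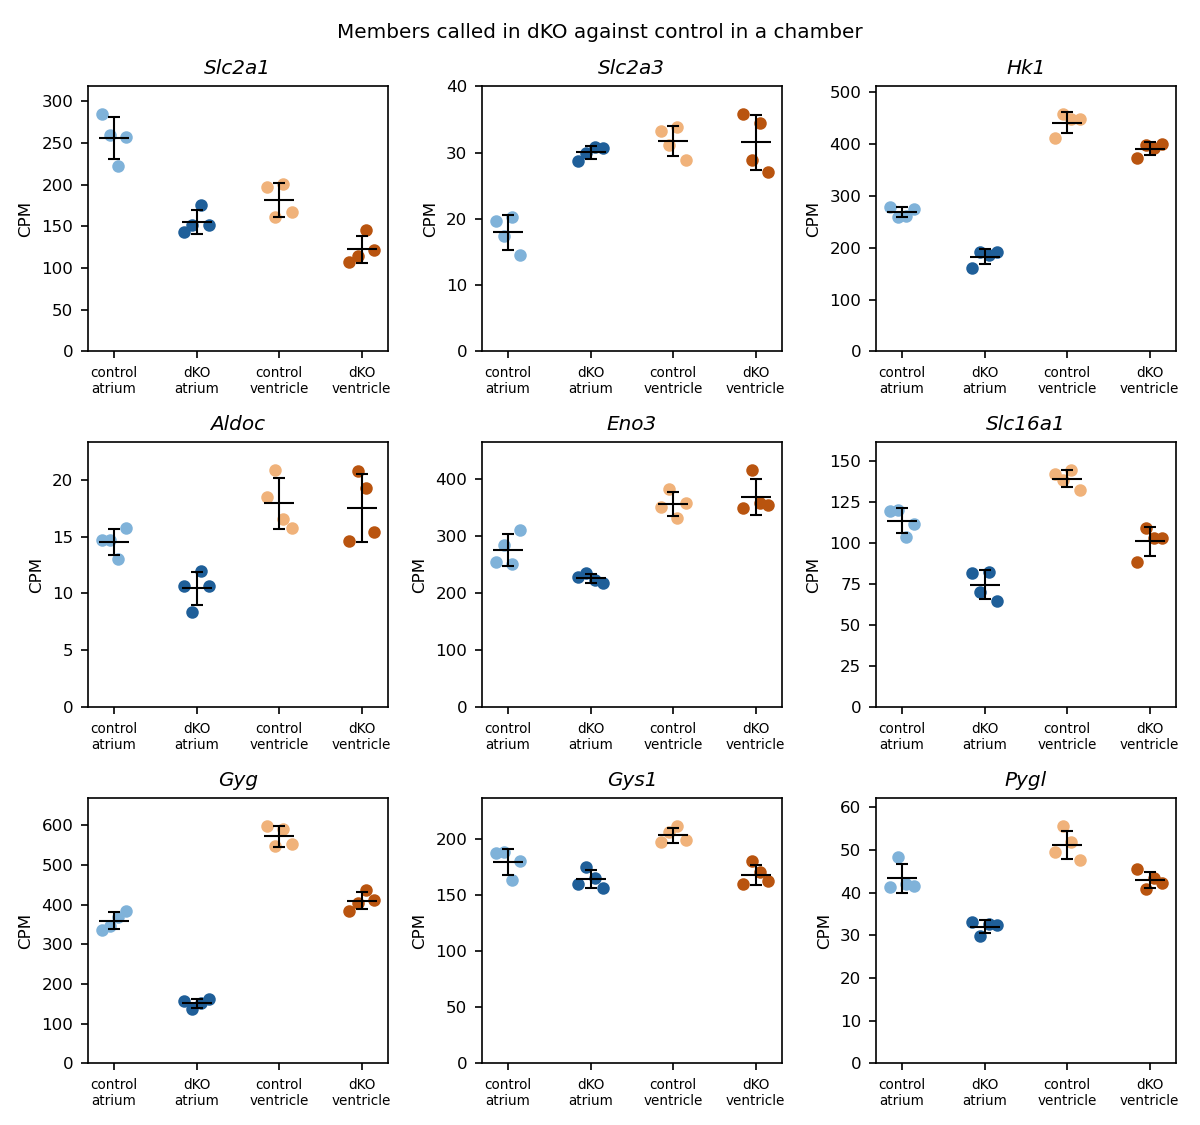
CPM in each library of the 9 members called in dKO against control in at least 1 chamber, on linear axes that start at 0, with 4 libraries per group. Points are libraries, horizontal bars are group means and vertical bars are 1 SD: Gyg drops from a mean of 359 to 152 CPM in atria, and Slc2a3 is the member whose dKO atria lie above the controls.

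Of the 9 members between glucose 6-phosphate and the triose phosphates, Aldoc was the one called in atria. In ventricles limma, edgeR and DESeq2 called 0 of the 9, and 1 had an unadjusted limma p under 0.05. Aldoc, an aldolase best known from brain, measured 14.7, 14.7, 13.0 and 15.8 CPM in control and 10.7, 8.40, 12.0 and 10.7 CPM in dKO atria. All dKO values lay below the controls (log2 -0.45 ± 0.11 SE, limma adjusted p = 0.0316), at a low level. The call was lost with no filter on low values, within the 4 embryos of 1 title number, and without control atrium 1, 2 or 4 or dKO atrium 2 (log2 -0.51 to -0.36, adjusted p 0.0504 to 0.117). In ventricles Aldoc measured 18.5, 20.8, 16.5 and 15.8 CPM in controls and 14.6, 20.7, 19.2 and 15.4 CPM in dKO, and these groups overlapped. Aldoa, the muscle aldolase, measured 1185, 1185, 1035 and 1253 CPM in control and 1119, 1088, 1249 and 1220.1 CPM in dKO atria, with overlap, and 1650.5, 1648, 1603 and 1713 CPM in control and 1481, 1572, 1584 and 1539 CPM in dKO ventricles, without overlap but not called. The 3 phosphofructokinases, which set the pace of glycolysis, were not called in either chamber. The muscle form Pfkm measured 203, 218, 209.7 and 228 CPM in control and 189, 212, 207 and 205 CPM in dKO atria, and 237, 259, 248 and 251 and 221, 248, 239 and 229 CPM in the ventricles. The liver form Pfkl had means of 239 ± 18.9 and 227 ± 15.7 CPM in control and dKO atria, and the platelet form Pfkp 153 ± 12.9 and 168 ± 14.2 CPM. For all 3 the genotypes overlapped in each chamber.

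Pfkfb2 and Pfkfb3 encode enzymes that make fructose 2,6-bisphosphate, the activator of phosphofructokinase. Pfkfb2, the heart form, measured 15.2, 12.6, 16.5 and 15.6 CPM in control and 20.1, 19.1, 16.6 and 17.8 CPM in dKO atria. The highest control and the lowest dKO atrium nearly touched, and the difference was not called (log2 0.28, limma adjusted p = 0.115). Pfkfb3 measured 27.8, 20.7, 23.2 and 17.4 CPM in control and 20.2, 28.1, 26.4 and 19.0 CPM in dKO atria, and 41.9, 28.4, 33.3 and 33.4 and 25.3, 32.7, 33.8 and 27.9 CPM in the ventricles, with overlap in both chambers. The remaining 2, the isomerases Gpi1 and Tpi1, had log2 differences of 0.04 and -0.11 in atria and 0.02 and -0.12 in ventricles.

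Of the 7 members from glyceraldehyde 3-phosphate to pyruvate, Eno3 was called in atria. In ventricles limma and edgeR called 0 of the 7 and DESeq2 1, Pgam1, and 3 had an unadjusted limma p under 0.05. Eno3, the muscle enolase, measured 254, 284, 252 and 310.4 CPM in control and 229, 235, 222 and 218 CPM in dKO atria. The dKO atria were below all controls (log2 -0.28 ± 0.071 SE, limma adjusted p = 0.037). This call was lost with no filter, within the 4 embryos of 1 title number, without control atrium 2 or 4 and without any single dKO atrium (log2 -0.30 to -0.22, adjusted p 0.0512 to 0.113). In ventricles Eno3 measured 351, 383, 331 and 358 CPM in controls and 348, 415, 357 and 354 CPM in dKO, and the groups overlapped. The 2 phosphoglycerate mutases were not called by limma: Pgam1 measured 533, 510.4, 541 and 512 CPM in control and 429, 482, 469 and 461 CPM in dKO ventricles, and Pgam2, the muscle form, 236, 242, 238 and 252 and 217, 231, 195 and 213 CPM. Each lay lower in all dKO ventricles without passing the test (log2 -0.19 and -0.18, limma adjusted p = 0.0713 and 0.127). Without dKO ventricle 2 both were called by limma (adjusted p = 0.0494 and 0.0488). In atria Pgam1 ranged from 443 to 479 CPM in control and 406 to 468 CPM in dKO, and Pgam2 from 350.5 to 432 and 365 to 418 CPM. Gapdh, Pgk1 and Pkm, which encode glyceraldehyde 3-phosphate dehydrogenase, phosphoglycerate kinase and pyruvate kinase, had log2 differences of 0.00, -0.09 and 0.05 in atria and -0.03, -0.14 and -0.05 in ventricles.

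Eno1, the most widely expressed enolase, stood at separate levels within each group. Control atria measured 863, 782, 498 and 580.0 CPM and dKO atria 486, 752, 630.2 and 839 CPM, while control ventricles measured 1090.0, 1057, 765 and 785 CPM and dKO ventricles 646, 1009, 743 and 1116 CPM. Eno1b, a retrotransposed copy of Eno1 that lies on another chromosome, is a separate entry of the table. It held at least 2880 reads in each of 8 libraries, both chambers of control embryos 3 and 4 and dKO embryos 1 and 3, and 0 reads in each of the other 8 libraries. Where present it made 24.1% to 27.3% of the sum of both genes. With both added, control atria measured 863, 782, 676 and 773 CPM, dKO atria 643, 752, 831 and 839 CPM, control ventricles 1090.0, 1057, 1052 and 1068 CPM and dKO ventricles 876, 1009, 1005 and 1116 CPM. The SD within a group was 153 to 220.3 CPM for Eno1 and 16.9 to 98.1 CPM for the sum. Each genotype had 2 embryos of each kind, and for the sum the dKO difference was -0.02 in atria and -0.10 in ventricles, neither called (limma adjusted p = 0.953 and 0.599). Reads of near-identical copies cannot be assigned with certainty, so the values of Eno1 and Eno1b taken singly are uncertain.

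**Figure D3:**
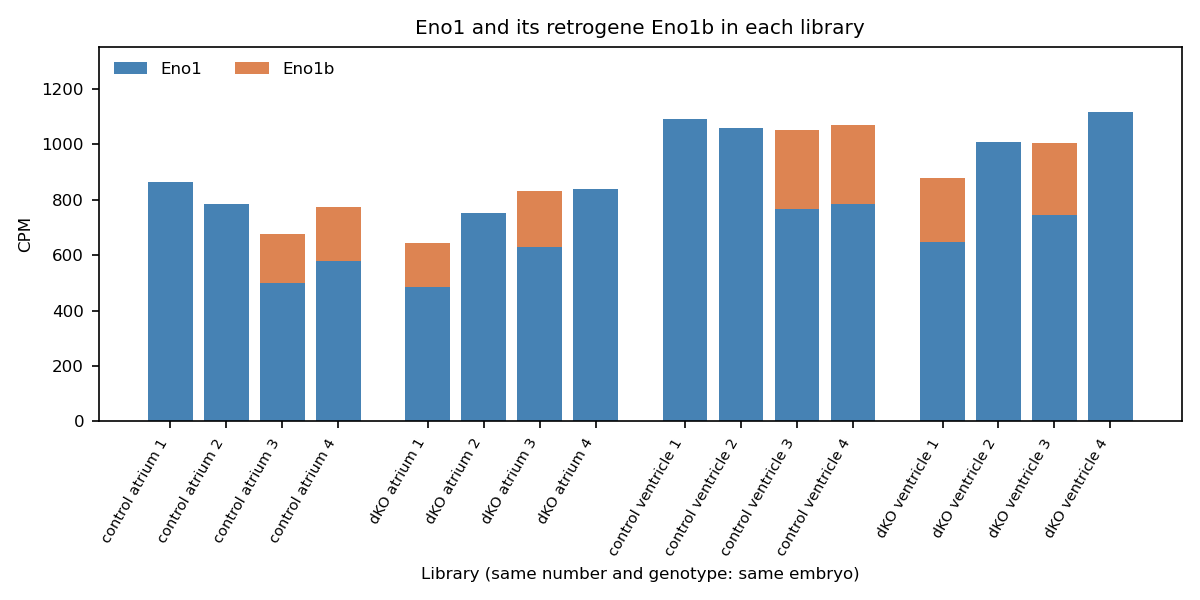
Stacked bars of Eno1 (blue) and its copy Eno1b (orange) in CPM for each of the 16 libraries, with libraries of 1 embryo bearing the same number and genotype in both chambers. Eno1b is present in both chambers of control embryos 3 and 4 and dKO embryos 1 and 3 and has 0 reads in the other 4 embryos, and the bars of control ventricles reach 1052 to 1090.04 CPM once both are added.

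Lactate dehydrogenase interconverts pyruvate and lactate, and monocarboxylate transporters carry lactate across the cell membrane. Slc16a1 (ENSMUSG00000032902, chromosome 3, 104638668 to 104658462) encodes MCT1, which moves lactate in either direction. It measured 119, 119.7, 104 and 112 CPM in control and 81.6, 70.0, 82.4 and 64.5 CPM in dKO atria. The groups were apart, with dKO at 65.7% of control (log2 -0.60 ± 0.084 SE, limma adjusted p = 0.0013). Ventricles gave the same order, with 142, 138, 144 and 132 CPM in controls and 88.2, 109, 103 and 103 CPM in dKO (log2 -0.46 ± 0.062 SE, limma adjusted p = 0.00195). Slc16a3, which encodes the lactate exporter MCT4, measured 88.4, 85.2, 76.4 and 66.1 CPM in control and 87.4, 97.1, 113 and 94.3 CPM in dKO atria. One dKO value lay inside the control range, and the difference was not called (log2 0.31, limma adjusted p = 0.0925). It was called with DESeq2, in the fit of all 16 libraries and with the title number as a block (adjusted p = 0.0364, 0.0423 and 0.0197). The last of these fits takes nothing from dKO atrium 1, the only atrium of its title number and the dKO value inside the control range. In ventricles Slc16a3 measured 167, 153, 179 and 146 CPM in controls and 157, 166, 186 and 147 CPM in dKO, with overlap. Ldha, the dehydrogenase subunit typical of glycolytic tissue, measured 845, 815, 731 and 887 CPM in control and 713, 683, 830.3 and 805 CPM in dKO atria, and 1460.4, 1453, 1442 and 1502 and 1252, 1387, 1459 and 1309 CPM in the ventricles. Neither Ldha nor Ldhb, the subunit typical of oxidative heart muscle, was called, with log2 differences of -0.11 and -0.03 in atria and -0.12 and -0.16 in ventricles.

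The 3 members that govern the entry of pyruvate into mitochondria were not called in either chamber by limma, edgeR or DESeq2 in the unblocked fits, with 0 of 3 in each and 1 of 3 at an unadjusted limma p under 0.05. Pdk1 and Pdk2 encode kinases that switch off pyruvate dehydrogenase, and Pdha1 its catalytic subunit. Pdk1 measured 248, 245, 215 and 224 CPM in control and 255, 217, 223 and 201 CPM in dKO atria, and 277, 288, 275 and 277 and 279, 263, 263 and 254 CPM in the ventricles. Pdk2 measured 100.5, 108, 98.0 and 127 and 105, 104, 96.1 and 102 CPM in control and dKO atria, and 93.3, 118, 92.6 and 102 and 111, 99.4, 92.6 and 109 CPM in control and dKO ventricles. Genotypes overlapped for both kinases in both chambers. For Pdha1 the log2 difference was -0.15 in atria and -0.14 in ventricles (limma adjusted p = 0.186 and 0.203). With the title number as a block Pdha1 was called lower in dKO atria (log2 -0.20, limma adjusted p = 0.0397). That fit takes nothing from dKO atrium 1, the only atrium of its title number.

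Gyg had the largest difference of any member in dKO atria. It encodes glycogenin, which adds the first glucose units to itself and serves as the primer of each glycogen particle (ENSMUSG00000019528, chromosome 3, 20122084 to 20155317). Control atria measured 336, 347, 369 and 383 CPM and dKO atria 156, 136, 151 and 163 CPM. The lowest control was above the highest dKO atrium by a wide margin, and the dKO mean was 42.3% of control (log2 -1.24 ± 0.067 SE, limma adjusted p = 2.20e-06). Control ventricles measured 597, 547, 590.4 and 553 CPM and dKO ventricles 385, 404, 437 and 412 CPM. These groups were also apart, at 71.6% of control (log2 -0.48 ± 0.051 SE, limma adjusted p = 0.000331).

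Gys1 encodes the muscle glycogen synthase, which lengthens the chains begun by glycogenin. It measured 188, 189, 163 and 180.3 CPM in control and 159.7, 175, 166 and 157 CPM in dKO atria, with overlap. Control ventricles measured 197, 206, 211 and 199 CPM and dKO ventricles 160.1, 180.2, 170.3 and 163 CPM, and here all dKO values were lower (log2 -0.27 ± 0.047 SE, limma adjusted p = 0.00894). Within the 4 embryos of 1 title number this call was lost (log2 -0.20, adjusted p = 0.354; 4.66e-05 to 0.0359 under the other alternatives). An exon of Gys1 overlaps Ruvbl2 on the opposite strand and the use of strand is not given, so its level is uncertain. The difference between chambers was -0.14 and was not called (95% interval -0.29 to 0.01). Gbe1, the branching enzyme, and Ugp2 and Pgm2, which supply activated glucose to glycogen, were not called in either chamber, with log2 differences of -0.10, 0.02 and -0.03 in atria.

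Of the 5 members that break glycogen down, Pygl was called in atria. In ventricles limma, edgeR and DESeq2 called 0 of the 5, and 1 had an unadjusted limma p under 0.05. Pygl, the liver form of glycogen phosphorylase, measured 41.4, 48.4, 41.9 and 41.6 CPM in control and 33.1, 29.7, 32.6 and 32.3 CPM in dKO atria. All dKO atria were lower (log2 -0.43 ± 0.069 SE, limma adjusted p = 0.00326). In ventricles it measured 49.5, 55.5, 51.7 and 47.7 CPM in controls and 45.4, 40.8, 43.4 and 42.3 CPM in dKO, apart but not called (log2 -0.24, limma adjusted p = 0.0647). Pygm, the muscle form, measured 269, 284, 259 and 297 CPM in control and 243, 269, 216 and 228 CPM in dKO atria, and 283, 305, 308 and 314 and 285, 308, 257 and 288 CPM in the ventricles. Pygb, the brain form, measured 368, 383, 354 and 406 CPM in control and 351, 379, 382 and 345 CPM in dKO atria, and 424, 446, 473 and 481 and 412, 431, 434 and 449 CPM in the ventricles. Both overlapped between genotypes in each chamber and were not called by limma. For Pygm in atria (log2 -0.22, limma adjusted p = 0.11) a call was gained with DESeq2, in the fit of all 16 libraries and without dKO atrium 2 (adjusted p = 0.0431, 0.0442 and 0.0469). The phosphorylase kinase subunits Phka1 and Phkb had log2 differences of -0.08 and -0.09 in atria and 0.04 and 0.07 in ventricles.

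Gyg, Slc2a1 and Slc16a1 are the 3 members called lower in dKO tissue of both chambers, and both comparisons use the same embryos, so they are not independent of each other. The bases before their start sites, from RefSeq on GRCm38.p6, are shown because these members moved the same way. Each run starts 250 bases before the RefSeq start and ends before the first exon of that gene in the GENCODE M21 annotation. The Gyg run is chr3:20155318-20155366 on the minus strand, the Slc2a1 run chr4:119108495-119108710 on the plus strand and the Slc16a1 run chr3:104638414-104638663 on the plus strand. They are written 5′ to 3′ on the gene's strand, and capitals mark matches on either strand to ACGTG or GCGTG, the core of the hypoxia response element, to the E-box CACGTG, which contains ACGTG on both strands, or to TGACAG, the core bound by MEIS proteins.
Gyg: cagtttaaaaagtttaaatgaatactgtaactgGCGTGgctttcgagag
Slc2a1: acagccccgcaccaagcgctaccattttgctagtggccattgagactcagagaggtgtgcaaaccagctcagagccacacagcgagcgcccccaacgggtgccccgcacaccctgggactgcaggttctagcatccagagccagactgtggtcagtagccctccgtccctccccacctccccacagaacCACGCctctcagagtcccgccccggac
Slc16a1: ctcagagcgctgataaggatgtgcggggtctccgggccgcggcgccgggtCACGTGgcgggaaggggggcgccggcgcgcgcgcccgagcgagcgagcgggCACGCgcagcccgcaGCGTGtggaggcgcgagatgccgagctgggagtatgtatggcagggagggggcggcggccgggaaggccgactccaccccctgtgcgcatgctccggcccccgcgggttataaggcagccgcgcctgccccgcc
The Gyg run holds 1 hypoxia core match and the Slc2a1 run holds 1, and another match of Slc2a1 crosses the end of the run. The Slc16a1 run holds 4, of which 2 are the strands of 1 E-box. No run holds TGACAG. In the 250 bases before the start, the hypoxia core was found in 77.4% of 53 member promoters, 55.1% of 13250 promoters of tested genes and 38.6% of all 32851 RefSeq promoters. TGACAG was found in 5.66% of member promoters, those of Gys1, Pfkfb2 and Pfkl, in 13.9% of those of tested genes and in 15.9% of all. The E-box was found in 11.3%, 8.25% and 6.02%. RefSeq promoters matched 36 of the 38 names, all but Slc2a3 and Slc2a4. These matches describe letters in a window and show no binding.

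Between chambers most members differed. In control embryos 31 of the 38 members differed between ventricles and atria, 28 higher and 3 lower in ventricles (limma with embryo as a block). This is 81.6% of the members, beside 46.9% of all genes, and 73.7% were higher in ventricles, beside 26.4% of all genes (20.5% lower). Control chambers did not overlap for 28 members, 73.7% beside 43.3% of all genes. In dKO embryos 29 of 38 differed (76.3%, beside 49.1% of all genes), 26 higher and 3 lower in ventricles, beside 26.5% and 22.5% of all genes. Here 23 did not overlap, 60.5% beside 39.3%. The median over the members was 0.28 in control and 0.29 in dKO embryos, beside 0.03 over all genes in each. Slc2a1, Pfkfb2 and Pgam2 were the 3 members lower in ventricles in both genotypes, with log2 differences of -0.49, -0.79 and -0.66 in control and -0.35, -1.20 and -0.89 in dKO embryos.

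The members past a log2 of 1 in control embryos were Hk2 (1.06 ± 0.11 SE, limma adjusted p = 4.93e-07) and Slc16a3 (1.02 ± 0.088 SE, limma adjusted p = 2.40e-08), the library values of which are given above. Control ventricles stood at 211% and 204% of the atrial means, and no control ventricle overlapped a control atrium for either gene. Ldha (0.84), Slc2a3 (0.80), Pgk1 (0.78), Pfkp (0.78), Hk1 (0.71), Gyg (0.67) and Tpi1 (0.65) followed. Of the 9 members between glucose 6-phosphate and the triose phosphates 7 were higher in control ventricles, Pfkfb2 was lower and Aldoc (0.28, limma adjusted p = 0.0556) was not called. Of the 7 from glyceraldehyde 3-phosphate to pyruvate 6 were higher and Pgam2 was lower. The differences were 0.18 for Gapdh, 0.18 for Gpi1, 0.45 for Pkm and 0.51 for Aldoa. Of the 5 members of glycogen breakdown, Pygb (0.27) and Pygl (0.23) were higher and Pygm (0.13), Phka1 (0.13) and Phkb (-0.17) were not called by limma. Phkb was called lower in ventricles with edgeR, DESeq2 and re-centred medians and without control embryo 1 or dKO embryo 1 or 4 (adjusted p 0.0241 to 0.0418), and Pygm was called higher without dKO embryo 2 (0.0499). Aldoc was called higher among genes averaging at least 5 CPM and without control embryo 4 or dKO embryo 2 (0.0209 to 0.04998). Of the 5 members of glycogen synthesis, Gyg, Pgm2 (0.34) and Gys1 (0.18) were higher and Gbe1 (0.07) and Ugp2 (-0.08) were not called. The Gys1 call was lost with edgeR (adjusted p = 0.0527) and without control embryo 3 (0.108). The call of Eno1 (log2 0.46, limma adjusted p = 0.0465) was lost with edgeR, DESeq2, no filter, re-centred medians, no embryo block and without any control embryo or dKO embryo 3 (adjusted p 0.0602 to 0.153). For Eno1 and Eno1b added the log2 difference was 0.47 in control and 0.39 in dKO embryos (limma adjusted p = 0.00011 and 0.000609).

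In dKO embryos the largest chamber difference was that of Gyg (log2 1.43 ± 0.057 SE, limma adjusted p = 7.54e-13), with ventricles at 270.0% of atria. Hk1 stood at a log2 of 1.10. Slc2a3 was at 0.06 (95% interval -0.13 to 0.25) and overlapped between dKO chambers. For these 3 the tests of the difference between genotypes are those given above, and they share all libraries with the chamber contrasts. The dKO call of Pfkfb3 (log2 0.35) was lost with edgeR, DESeq2, no filter and no embryo block. It was also lost without control embryo 3 or dKO embryo 1, 3 or 4 (adjusted p 0.0509 to 0.126 over these losses). Calls of Gpi1 and Gapdh were lost without dKO embryo 2 or 3, and that of Phka1 without dKO embryo 3 or 4 (0.0513 to 0.0953). Ugp2 was called lower with DESeq2 and without dKO embryo 2 (0.0365 and 0.0266).

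**Figure D4:**
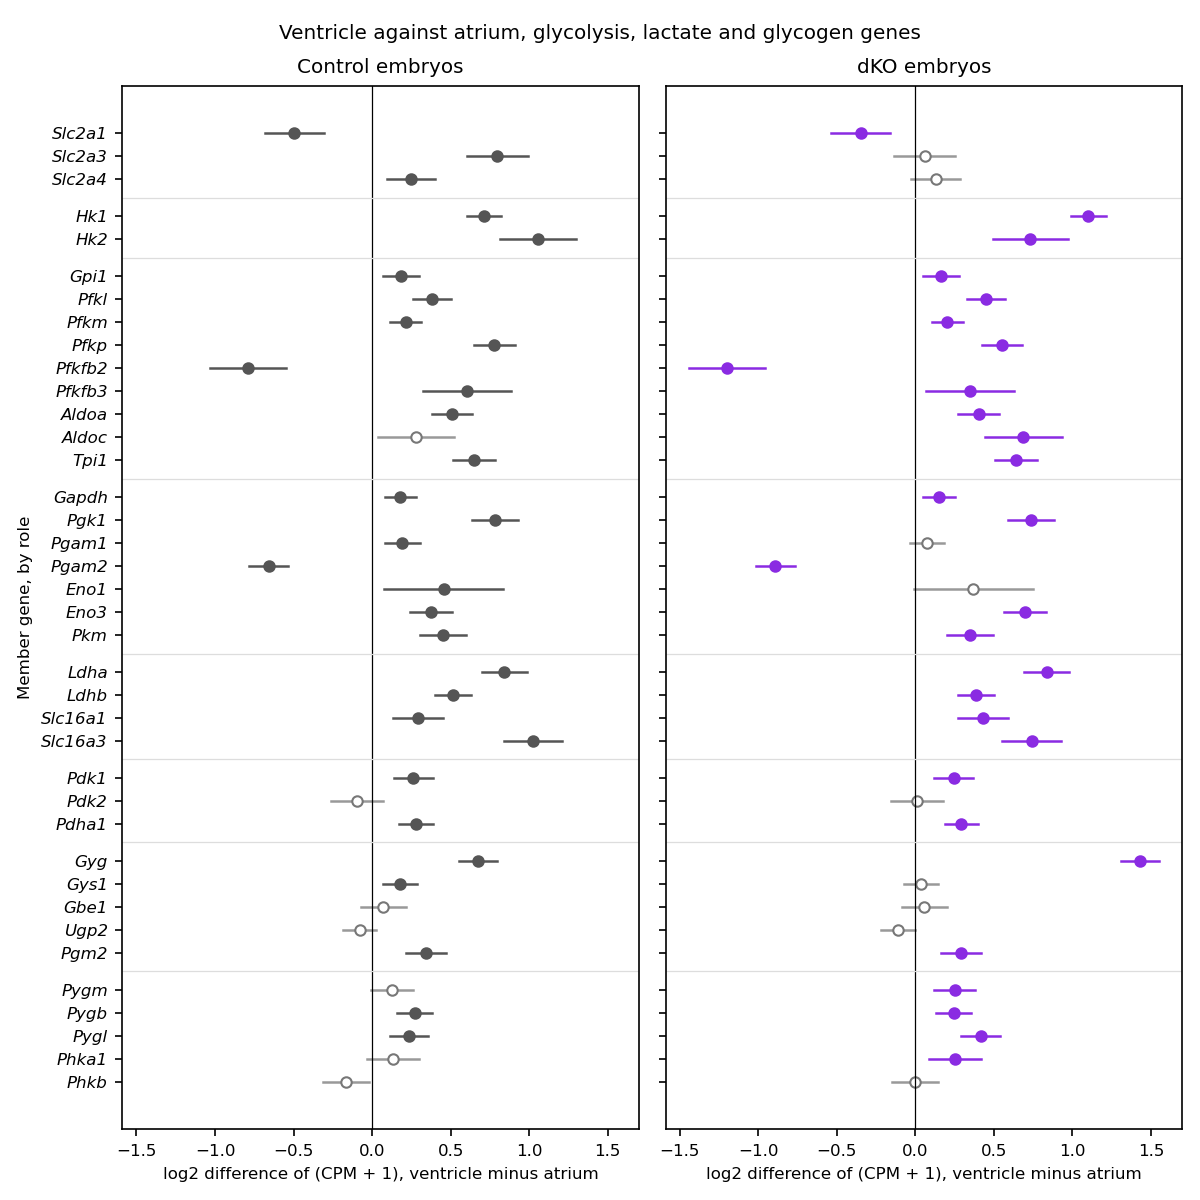
Log2 difference of (CPM + 1) between ventricles and atria for each of the 38 tested members, in control (left) and dKO embryos (right). Points are limma estimates with 95% intervals and filled points are called at adjusted p under 0.05: most members lie right of 0 in both panels, Slc2a1, Pfkfb2 and Pgam2 lie left of it, and Gyg moves from 0.67 to 1.43.

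Levels of genes of 1 family were compared as CPM per kilobase of transcript, taking the median length of the annotated coding transcripts. Slc2a1 made 77.0% ± 1.06 of the summed level of the 3 glucose transporters in control atria and 63.5% ± 2.29 in dKO atria (SD, n = 4). The share of Slc2a3 was 4.50% ± 0.919 and 10.1% ± 0.386, and that of Slc2a4 18.5% ± 1.51 and 26.4% ± 2.06. In ventricles the share of Slc2a1 was 64.6% ± 2.53 in controls and 55.7% ± 2.48 in dKO, and that of Slc2a4 26.1% ± 2.55 and 32.3% ± 1.84. For all 3 transporters the shares of the genotypes did not overlap in either chamber. The level of Slc2a4 itself overlapped in both chambers and that of Slc2a3 in ventricles. Of the 2 lactate transporters, Slc16a1 made 43.8% ± 2.62 in control and 29.2% ± 2.94 in dKO atria, and 31.8% ± 1.26 and 25.0% ± 2.19 in control and dKO ventricles, also without overlap. Hk1 made 84.0% ± 1.53 of the hexokinase level in control and 77.0% ± 2.43 in dKO atria, without overlap, and 80.3% ± 2.93 and 81.1% ± 1.66 in the ventricles, with overlap. These shares are descriptions and were not tested.

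**Figure D5:**
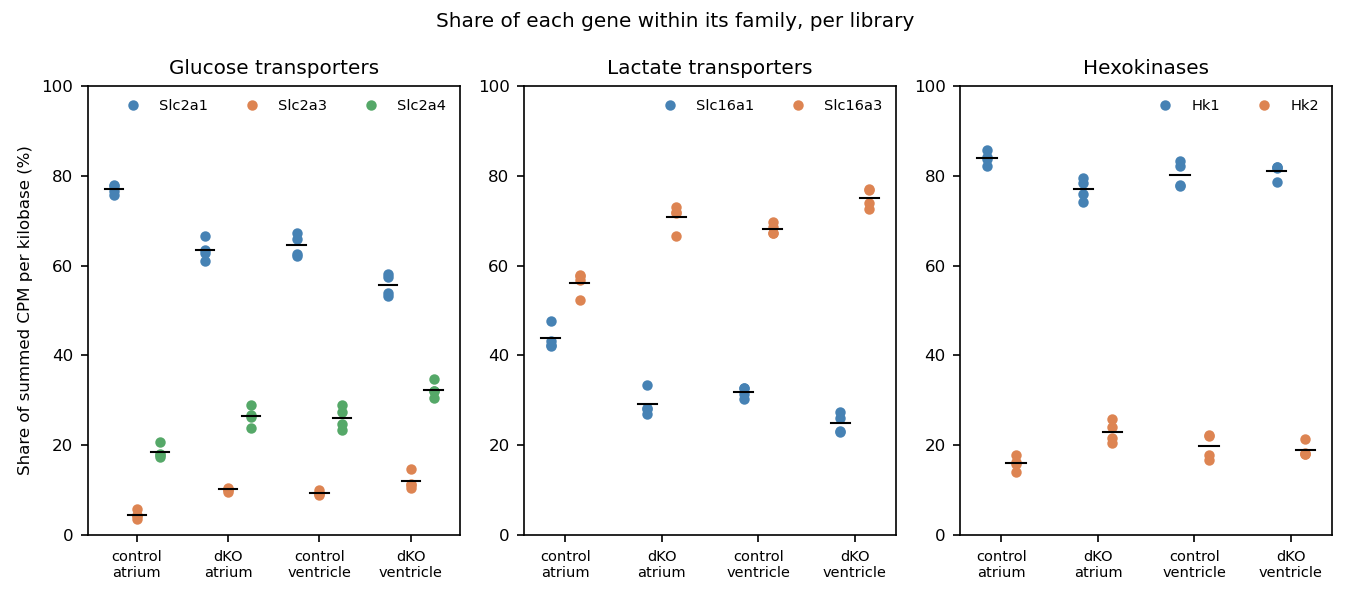
Share of each gene in the summed CPM per kilobase of its family (vertical axis, %), for 4 libraries (points) and their mean (line) in each of the 4 groups. The share of Slc2a1 and of Slc16a1 is lower in dKO than in control libraries of each chamber, and that of Hk1 is lower in dKO atria.

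In the other families the leading gene per kilobase was the same in all 4 groups for Aldoa (771 against 6.48 CPM per kilobase for Aldoc in control atria), Ldha (516 against 312 for Ldhb), Eno1 (347 against 188 for Eno3) and Pfkfb3 (10.4 against 7.11 for Pfkfb2). Pgam2 led in control atria (456 against 258 CPM per kilobase for Pgam1), and in control ventricles they stood at 288 and 295, with shares of 48.1 to 51.0% and 49.0 to 51.9%. Pdk2 and Pdk1 stood at 48.2 and 44.9 CPM per kilobase in control atria and 45.1 and 53.9 in control ventricles. Pygm and Pygb stood at 102 and 96.6 in control atria and 111 and 117 in control ventricles, far above Pygl (14.9 and 17.6). The 3 phosphofructokinases stood at 76.2 for Pfkm, 64.1 for Pfkl and 44.7 for Pfkp in control atria and 88.4, 83.4 and 76.8 in control ventricles. With the union of all exons as the length these were 64.2, 35.8 and 11.4 in control atria, the share of Pfkp falling from 24.1% to 10.2% and that of Pfkm rising from 41.3% to 57.7%. With that length the share of Pygl in control atria also moved from 7.0% to 3.68% and that of Slc2a3 from 4.50% to 2.88%, Eno3 was above Eno1 in all 4 groups, Ldhb above Ldha in atria, Pgam2 above Pgam1 in ventricles of both genotypes, and Slc16a1 above Slc16a3 in control tissue of both chambers, so these orders depend on the transcript length used. The order among Slc2a1, Slc2a4 and Slc2a3 did not. Exons of Pfkm, Pfkp, Pfkfb2 and Aldoa, like those of Gpi1, Tpi1, Gapdh, Pdha1, Ugp2 and Pgm2, overlap a gene on the opposite strand. Their levels are uncertain without a stated use of strand. Exons of Pkm and Pfkfb2 overlap another gene on the same strand, so their levels are uncertain even if strand was used.

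Other genes of the pathway were taken from lists of names. Of 35 tested genes of glycolysis, pyruvate oxidation and the pentose phosphate branch, 1 rose and 1 fell in dKO atria. Of all genes tested 4.04% rose and 3.43% fell there. Tkt, a transketolase, measured 59.7 ± 8.41 CPM in dKO against 45.6 ± 2.56 CPM in control atria (log2 0.37, limma adjusted p = 0.0356), and Pdk3, another pyruvate dehydrogenase kinase, 58.6 ± 2.07 against 68.7 ± 3.60 CPM (log2 -0.22, limma adjusted p = 0.0325). In atria edgeR called 2 of the 35 and DESeq2 5, and 8 had an unadjusted limma p under 0.05, 3 higher and 5 lower. In ventricles limma, edgeR and DESeq2 called 0 of the 35, and 3 had an unadjusted limma p under 0.05. The medians were -0.04 in atria and -0.05 in ventricles.

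Of 25 tested genes around glycogen, 6 fell and none rose in dKO atria, beside 3.43% and 4.04% of all genes tested. At an unadjusted limma p under 0.05 there were 11, 9 of them lower. Among the 6 that fell were Ppp1r3d and Ppp1r3b, which target protein phosphatase 1 to glycogen (28.2 ± 2.22 against 41.8 ± 3.78 CPM and 95.9 ± 8.85 against 122 ± 5.41 CPM; log2 -0.55 and -0.35). Pgm5, a relative of phosphoglucomutase (log2 -0.25), and Stbd1, which anchors glycogen to membranes (-0.89), were 2 more (limma adjusted p of these 4 from 0.0016 to 0.0186). In dKO ventricles 2 of the 25 fell, beside 1.01% of all genes tested. They were Stbd1 at 40.5 ± 3.67 against 60.5 ± 1.31 CPM (log2 -0.57, limma adjusted p = 0.000531) and Prkaa2, a catalytic subunit of AMP-activated kinase, at 189.6 ± 6.86 against 236 ± 7.93 CPM (log2 -0.31, limma adjusted p = 0.00225). At an unadjusted limma p under 0.05 there were 10 in ventricles, 8 of them lower. The median of this list was -0.10 in atria and -0.07 in ventricles, beside -0.0046 and -0.02 over all genes. The list was drawn up with earlier results of these data known.

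Of 21 genes of the hypoxia factor system and its other targets, 1 rose and 1 fell in dKO atria, beside 4.04% and 3.43% of all genes tested. They were the collagen prolyl hydroxylase P4ha1 (log2 0.37, limma adjusted p = 0.0357) and the peptide Adm (log2 -0.44, limma adjusted p = 0.0185). In atria edgeR called 2 of the 21 and DESeq2 4, and 9 had an unadjusted limma p under 0.05, 2 higher and 7 lower. Limma, edgeR and DESeq2 called 0 of the 21 in dKO ventricles, and 5 had an unadjusted limma p under 0.05, all lower.

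Markers of several cell types moved with genotype in atria, where 4.04% of all genes tested rose and 3.43% fell (0.989% and 1.01% in ventricles). The summed level of 8 cardiomyocyte markers was 17581 to 20209 CPM in control and 14453 to 16436 CPM in dKO atria, without overlap, and 2 of the 8 fell, Actn2 (-0.36) and Pln (-0.42). Summed smooth muscle and pericyte markers were 519 to 643 and 846 to 1189 CPM (3 of 5 rose), epicardial markers 245 to 322 and 333 to 395 CPM (1 of 5 rose), and atrial myocyte markers 9969.7 to 11819.9 and 12788 to 14048 CPM (2 of 5 rose and 1 fell), each without overlap. Fibroblast markers were 3591 to 4822 and 4259 to 7119 CPM (2 of 7 rose), endothelial markers 828 to 838 and 760.0 to 978 CPM (1 of 6 fell) and macrophage markers 77.2 to 95.5 and 78.9 to 135 CPM (1 of 6 rose), with overlap. Neuron and glia markers were 9.25 to 36.0 and 5.25 to 22.4 CPM, with overlap and 0 of 3 tested called by limma, edgeR or DESeq2, nor any at an unadjusted p under 0.05. Ventricular myocyte markers were 394 to 1555 CPM in control and 238 to 1055 CPM in dKO atria (1 of 4 fell). In ventricles the sum of 4 ventricular myocyte markers was 19702 to 21672 CPM in control and 17462 to 19036 CPM in dKO (1 of 4 fell) and that of 5 atrial markers 1755 to 2259.6 and 4007 to 4730.1 CPM (2 of 5 rose), without overlap. Cardiomyocyte, smooth muscle, fibroblast, epicardial, endothelial, macrophage and neuron and glia sums overlapped between ventricular groups. No listed marker was at 0 in all libraries, and the part of these differences in the members' results was not tested.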

How the data were processed

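Libraries were prepared with a NEBNext Ultra kit from the polyadenylated part of 20 ng of total RNA, and single 60-base reads were sequenced, per the labels' protocols. Tools named are cutadapt and RSEM 1.3.1, with GRCm38 as the build, per the submitters' processing notes. The values deposited by the authors are CPM, read counts scaled to library size, of 16118 genes. How they were normalized and filtered, with which annotation release and whether by strand, is not given in the sources used here.

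Divided by 1 step per library, the values come out as whole reads plus 0.5 (100% of values within 0.001). These recovered reads, 7.88 to 23.0 megareads per library, gave depths and the tests on counts. A count of 3 reads corresponded to 0.110 to 0.312 CPM, for counting error alone. The variance between replicates of a group was 6.47 to 25.7 times that of counting error (chi-square per degree of freedom, 24 pairs). This covers well-read genes of the whole series, not the members alone, and no pair agreed within counting error.

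The tests used limma 3.58.1 (R 4.3.3) with a mean-variance trend on log2(CPM + 1) for 13950 genes averaging at least 1 CPM over 16 libraries, two-sided, with Benjamini-Hochberg adjustment over all genes and calls at an adjusted p under 0.05. A difference on this scale understates changes of low genes. Genotypes were compared within each chamber (4 against 4). Chamber contrasts, and how far the dKO effect differed by chamber, used all 16 libraries with embryo as a block, since each embryo gave both chambers (consensus correlation 0.108). Genotypes were not paired, since title numbers do not mark litters of 1 control and 1 dKO. The tests were checked on simulated reads with 200 changed genes. False calls were 7.20% of calls in atria, 3.01% in ventricles, 2.80% and 6.16% between control and dKO chambers and 6.09% for the difference between chambers. At a log2 of 0.5 the share of changed genes called was 39.4%, 48.0%, 63.0%, 52.0% and 35.0% in the same order. A gene not called may therefore still differ by this much.

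Alternatives were edgeR 4.0.16 and DESeq2 1.42.0 on recovered reads, pseudocounts of 0.5 and 5, no filter, a mean of at least 5 CPM, re-centred medians, the title number as a block, the 4 embryos of 1 title number, the fit of all libraries, no embryo block, and leaving out each library or embryo. Adding Eno1b to Eno1 was chosen after seeing the data. Library values are given for members called in a dKO comparison or in the difference between chambers, members past a log2 of 1 between control chambers, and the leading gene of each family per kilobase. From the other lists, at most 6 called genes with the smallest adjusted p are named, besides the Meis genes and called markers in lists of few calls, and 1 listed gene is not reported here. The members and lists were chosen with earlier results of these data known. GENCODE M21 (GRCm38) gave positions and lengths, and no deposited sample column was left out.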

Additional observations from a re-analysis of the deposited data

Results flagged for a closer look

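Of 44 groups of 4 libraries checked for a library far from the rest, 2 had one, and chance alone gives about 1 in 20. Eno3 measured 415 CPM in dKO ventricle 2, away from the other 3 dKO ventricles, by a gap of 0.866 of the group's range. Pygl measured 48.4 CPM in control atrium 2, by a gap of 0.929 of the range. Without that atrium the Pygl difference stayed called. For 3 members the dKO effect differed between chambers by a test of the difference (limma with embryo as a block). As ventricles minus atria it was 0.76 for Gyg (adjusted p = 1.49e-05), 0.39 for Hk1 (adjusted p = 0.00562) and -0.74 for Slc2a3 (adjusted p = 0.00254).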

How the results depend on the processing

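The number of members called was within 1.5 times the reported one under every alternative run except 1: within the 4 embryos of 1 title number 2 ventricular members were called in place of 4, Slc2a1 and Gys1 being lost. Over the alternatives the counts were 6 to 10 in atria, 2 to 6 in ventricles, 29 to 33 between control chambers, 25 to 30 between dKO chambers and 3 to 4 for the difference between chambers. Leaving out 1 library or embryo gave 6 to 8, 4 to 6, 29 to 33, 25 to 29 and 3 to 3. No named difference changed direction. With the title number as a replicate block 10 atrial and 4 ventricular members were called. Because dKO embryo 1 is the only embryo of its title number, it does not inform the differences of those fits. Without the embryo block the counts were 30, 28 and 3. In atria Slc2a1, Slc2a3, Hk1, Slc16a1, Gyg and Pygl, in ventricles Slc16a1 and Gyg, and between chambers Gyg, Hk1 and Slc2a3 were called under each alternative run, and Aldoc and Eno3 were not. Over all genes, 279 were called in ventricles, 469 with DESeq2 and 79 within the 4 embryos of 1 title number. In atria 1042 were called over all genes and 944 within the same 4 embryos. For the difference between chambers 368 were called over all genes, 241 without control embryo 4 and 238 without dKO embryo 3. The cause of these shifts was not tested. The lowest member level, 63 reads, was above the floor of 3 reads. Over well-read genes of the whole series, the variance between replicates was at least 6.47 times that of counting error.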
